A study of Mus musculus with 24 samples.

Results

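The liver genes of cholesterol efflux and esterification were followed across 3 high-fat diets. They are 9 listed genes: *Abcg5*, *Abcg8*, *Abca1* and *Abcg1* for efflux, *Soat1*, *Soat2* and *Lcat* for esterification, *Nceh1* for the release of cholesterol from its esters, and *Nr1h3* as the sterol-responsive regulator. Members were matched by gene symbol in the table that pairs array probe sets with genes, keeping probe sets that name a single gene. By this rule 7 of the 9 genes were measured, of 18820 genes in all, each by 1 probe set. *Soat1* and *Soat2* had no probe set in that table and were not analysed here.

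The livers came from male C57BL/6J mice aged 4 to 6 months, 8 mice per diet, with 1 array per mouse. For 7 weeks the Trans group received fat from partially hydrogenated soy oil, the Cis group from canola and palm olein oil, and the Saturated group from cocoa butter. In all 3 diets 45% of the energy was fat, so each comparison is between one fat source and another, and whole fats differ in more than 1 fatty acid. The question was how these genes differ between the Trans diet and each of the others, and how they vary among mice.

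As background, hepatocytes secrete free cholesterol into bile through the transporter formed by ABCG5 and ABCG8 together, whereas ABCA1 passes cholesterol to lipid-poor apolipoprotein A-I and ABCG1 to particles that already carry lipid. SOAT1 and SOAT2 esterify cholesterol inside cells, LCAT does so on circulating high-density lipoprotein (HDL), and NCEH1 hydrolyses cholesteryl esters. The receptor LXRα, product of *Nr1h3*, is activated by oxysterols and is known to induce *Abca1*, *Abcg1*, *Abcg5* and *Abcg8*.

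Values are robust multi-array average (RMA) signals, given here on the linear scale, and differences are on the log2 scale. The 24 arrays had medians of 2.94 to 3.06 on the log2 scale, and each correlated with the others at a median of 0.975 to 0.986, lowest in Trans replicate 4. One liver stood apart from its group in sterol genes. Saturated replicate 2 had a mean of 7.46 (log2) over 17 cholesterol synthesis genes, against 8.40 to 9.18 in the other 7 Saturated livers, and each diet comparison was therefore also made without it. Of 12 hepatocyte markers 9 were measured, with a mean between 11.9 and 12.1 (log2) in every liver.

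*Abcg5* (chr17:84658174-84683011) and *Abcg8* (chr17:84676302-84700333) lie on opposite strands in RefSeq on GRCm38.p6. One annotated *Abcg8* start lies 110 bases from the *Abcg5* start, head to head, and the other lies inside the *Abcg5* gene, so that the annotated loci overlap. The RefSeq promoter windows at the head-to-head starts, from 250 bases before to 50 bases after the start, share 209 bases. The *Abcg5* window is printed because it holds all 209 shared bases. That of *Nceh1* is printed because the gene had the smallest p of the members. Capitals mark the TATA box (TATAAA), the GATA element (AGATAA), the CCAAT box and the E-box (CACGTG), on either strand. The *Abcg5* window is chr17:84682962-84683261 (minus strand) and that of *Nceh1* is chr3:27182754-27183053 (plus strand).
*Abcg5*: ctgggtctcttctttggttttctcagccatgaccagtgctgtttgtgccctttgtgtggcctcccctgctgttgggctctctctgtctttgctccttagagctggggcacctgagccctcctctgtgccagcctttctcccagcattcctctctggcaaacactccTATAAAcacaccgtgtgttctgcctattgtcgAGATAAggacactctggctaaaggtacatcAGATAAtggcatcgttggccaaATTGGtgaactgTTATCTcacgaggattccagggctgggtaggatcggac
*Nceh1*: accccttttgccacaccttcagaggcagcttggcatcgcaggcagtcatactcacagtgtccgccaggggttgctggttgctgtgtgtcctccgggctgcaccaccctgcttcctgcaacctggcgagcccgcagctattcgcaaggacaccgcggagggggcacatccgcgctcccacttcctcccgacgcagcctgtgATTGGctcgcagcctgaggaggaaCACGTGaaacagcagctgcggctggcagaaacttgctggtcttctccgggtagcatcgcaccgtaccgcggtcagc
The *Abcg5* window held the GATA element at positions -52, -22 and 13 from the start, the TATA box at -84 and the CCAAT box at 1. The *Nceh1* window held the CCAAT box at -50 and the E-box at -26. On either strand, the GATA element occurs in 11.2% of the 32851 promoter windows of the table, the TATA box in 13.6%, the CCAAT box in 37.4% and the E-box in 7.15%. The nuclear receptor motif AGGTCA occurs in 16.3% of windows, and 2 copies in direct repeat with a gap of 4 bases in 0.0152%. Neither was in any of the 9 windows found for 7 of the listed genes, *Soat1* among them. Only these exact letters were searched, so variants of either motif would be missed. Their absence therefore does not show that a promoter lacks a site for LXRα. The motifs found are matches of letters and say nothing on binding.

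*Abcg5*, a subunit of the biliary sterol transporter, had its highest mean in the Trans group. Its signal had a lowest value of 361, a median of 590 and a highest value of 754 in the Trans livers, against 355, 506 and 647 in the Cis livers and 298, 451 and 611 in the Saturated livers. The 3 groups overlapped. Trans replicates 6 and 7, at 361 and 385, lay below the Saturated mean, whereas the other 6 Trans livers ranged from 528 to 754. Between Trans and Saturated the difference was 0.34 ± 0.16 (log2, SE, 1.26-fold), with a 95% interval of 0.0043 to 0.67 and an adjusted p of 0.677 (limma, n = 8 per group). For Trans against Cis it was 0.18 (adjusted p = 0.898), and for Cis against Saturated 0.16 (adjusted p = 0.902, limma).

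*Abcg8*, its partner in the transporter, showed the same order of means. Its signal ran from 324 over a median of 468 to 700 in the Trans livers, against 268, 399 and 634 in the Cis livers and 218, 343 and 493 in the Saturated livers, again with overlap between all groups. Trans replicates 6 and 7, at 324 and 365, lay below the Saturated mean signal of 369, and 4 of the 8 Trans livers lay above the highest Saturated liver. On the log2 scale Trans replicate 7, at 8.51, lay just above the Saturated mean of 8.48. The Trans against Saturated difference was 0.40 ± 0.18 (log2, SE, 1.32-fold), with a 95% interval of 0.03 to 0.77 and an adjusted p of 0.642 (limma). The Trans against Cis difference was 0.26 (adjusted p = 0.856, limma), and that of Cis against Saturated 0.14 (adjusted p = 0.921).

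*Nceh1*, which encodes a hydrolase of cholesteryl esters in the endoplasmic reticulum, differed most between Trans and Saturated relative to its spread. Its lowest, median and highest signals were 149, 180 and 209 in the Trans livers, 148, 154 and 173 in the Cis livers, and 115, 147 and 167 in the Saturated livers. All 8 Trans livers and all 8 Cis livers exceeded the Saturated mean, and 5 Trans livers exceeded the highest Saturated liver, so the groups overlapped only in part. The Trans against Saturated difference was 0.30 ± 0.08 (log2, SE, 1.23-fold), with a 95% interval of 0.13 to 0.46. The limma p was 0.00128 and became 0.342 after adjustment over the 35556 probe sets, and an exact two-sided permutation test over the livers gave p = 0.00668 for this gene alone. Between Trans and Cis the difference was 0.15 (adjusted p = 0.806, limma; exact permutation p = 0.0404), and between Cis and Saturated 0.14 (adjusted p = 0.816, limma; exact permutation p = 0.080). Without Saturated replicate 2 the Trans against Saturated difference was 0.32 (adjusted p = 0.222, limma).

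*Abca1*, which loads cholesterol onto apolipoprotein A-I, lay close together in the 3 diets. The lowest, median and highest signals were 331, 357 and 452 in the Trans livers, 314, 350 and 405 in the Cis livers, and 308, 349 and 379 in the Saturated livers. The groups overlapped throughout, and the highest liver was Trans replicate 5. The Trans against Saturated difference was 0.07 (log2), with a 95% interval of -0.07 to 0.21 and an adjusted p of 0.896 (limma), and it was 0.023 without Trans replicate 5. Against Cis the Trans livers differed by 0.06 (0.012 without Trans replicate 5), and the Cis livers differed from the Saturated livers by 0.01.

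*Abcg1*, which is abundant in macrophages, had a signal that ran from 35.4 over a median of 43.9 to 78.0 in the Trans livers, against 33.9, 40.9 and 49.95 in the Cis livers and 32.8, 42.9 and 55.9 in the Saturated livers. The top value, Trans replicate 4, was apart from the next Trans liver at 47.9. The groups overlapped, and the Trans against Saturated difference was 0.07 (log2, 95% interval -0.21 to 0.35, adjusted p = 0.958, limma). Without Trans replicate 4 it was -0.042. For Trans against Cis the difference was 0.12, and 0.011 without Trans replicate 4, and for Cis against Saturated -0.05.

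*Nr1h3*, the gene of LXRα, had a lowest, median and highest signal of 263, 303 and 362 in the Trans livers, 241, 322 and 392 in the Cis livers, and 239, 301 and 369 in the Saturated livers. No Trans liver exceeded the highest liver of either other diet. Its differences were 0.05 (log2) for Trans against Saturated, -0.04 for Trans against Cis and 0.09 for Cis against Saturated. With 1 liver left out, the Trans against Saturated difference ran from 0.0043, without Saturated replicate 5, to 0.09, without Saturated replicate 6.

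*Lcat*, the plasma esterifying enzyme made by hepatocytes, had signals of 1078, 1143 and 1436 in the Trans livers, 1084, 1231 and 1364 in the Cis livers, and 1016, 1193 and 1410 in the Saturated livers (lowest, median, highest). It was the one member whose mean was lower in Trans than in both other diets, with the groups overlapping. The differences were -0.04 (log2) for Trans against Saturated, -0.05 for Trans against Cis and 0.02 for Cis against Saturated, with 95% intervals that all held 0.

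**Figure D1:**
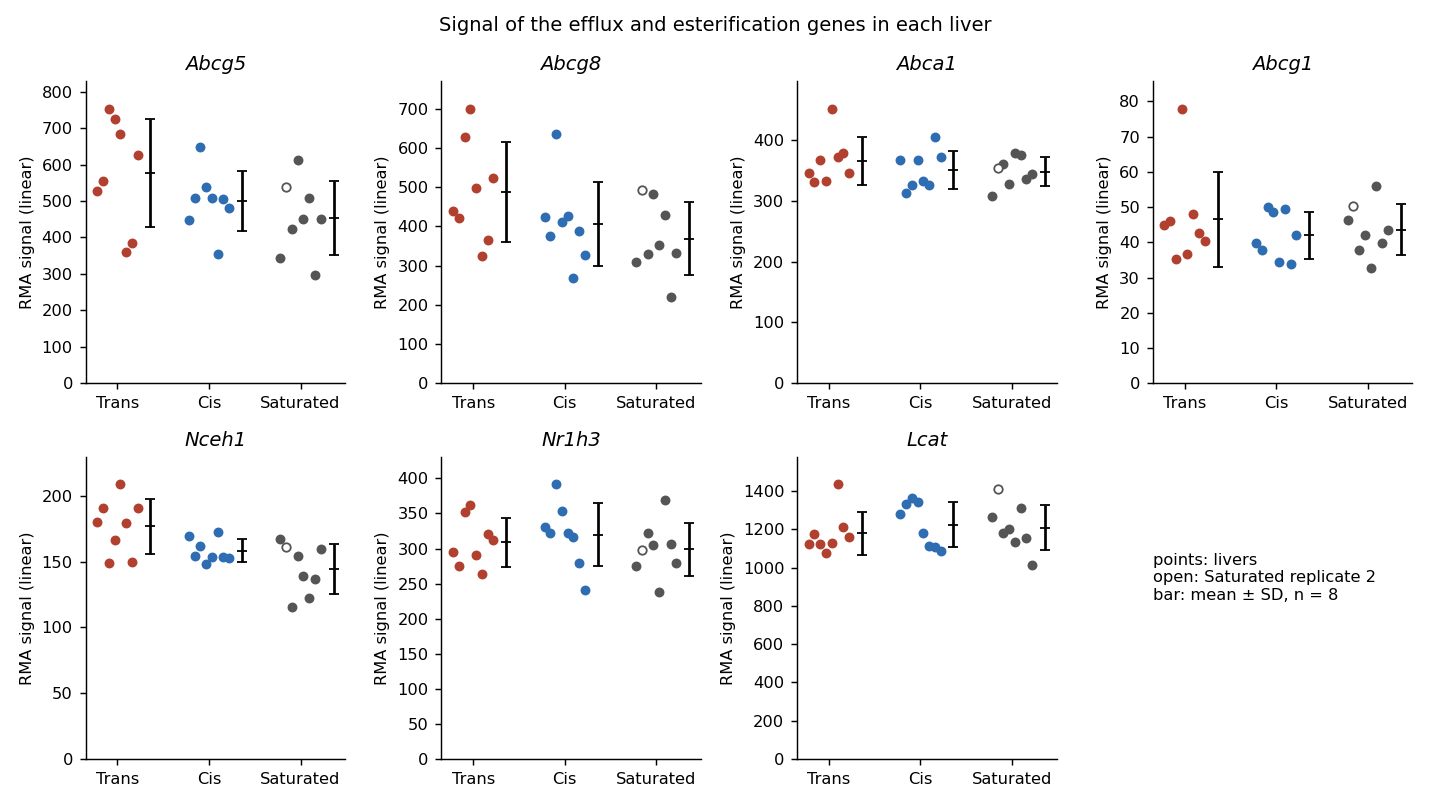
Linear RMA signal of each measured gene (vertical axes from 0) in the Trans, Cis and Saturated livers, 1 point per liver, the open point being Saturated replicate 2, with the mean ± SD of 8 livers beside each group. The groups overlap for every gene, and Nceh1 runs from 149 to 209 in Trans livers against 115 to 167 in Saturated livers.

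Counted over the members, 0 of 7 passed an adjusted p of 0.05 in limma for Trans against Saturated, a comparison in which 0.00844% of all probe sets passed. At an unadjusted p under 0.05, *Abcg5*, *Abcg8* and *Nceh1* did, all higher in Trans, beside 8.33% of all genes in either direction and 4.55% in that direction. This count of 3 fell to 1 when any one of 8 livers was left out, namely Trans replicates 3, 4, 5 and 8 and Saturated replicates 1, 3, 7 and 8. The methods' post hoc test and the exact permutation test each put 1 member under 0.05 in this comparison, *Nceh1*. For Trans against Cis, 0 of 7 passed beside 0.00281% of probe sets, 0 did so at an unadjusted p under 0.05 beside 6.48% of all genes, and the exact permutation test alone put *Nceh1* under 0.05. For Cis against Saturated, 0 of 7 passed beside 0% of probe sets, and 0 were under 0.05 unadjusted (6.89% of all genes), by the post hoc test or by permutation. Without Saturated replicate 2 again 0 of 7 passed in each comparison, and the Trans against Saturated difference was 0.38 for *Abcg5* (adjusted p = 0.598) and 0.47 for *Abcg8* (adjusted p = 0.537, limma). The Trans mean was the higher for 6 of 7 members against Saturated, beside 51.6% of all genes, and for 5 of 7 against Cis, beside 50.5%. The Cis mean was the higher for 6 of 7 against Saturated, beside 51.4%. The median log2 differences over the members were 0.07, 0.12 and 0.09 in these 3 comparisons, beside 0.00 over all genes in each. The Trans against Saturated median was 0.12 without Saturated replicate 6, the Trans against Cis median 0.07 without Trans replicate 4, and the Cis against Saturated median 0.04 without Saturated replicate 7 and 0.15 without Cis replicate 8. The comparisons share groups, so their counts are not independent of each other. *Abcg5* and *Abcg8* also varied together between livers (r = 0.914), so the counts do not rest on independent genes.

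**Figure D2:**
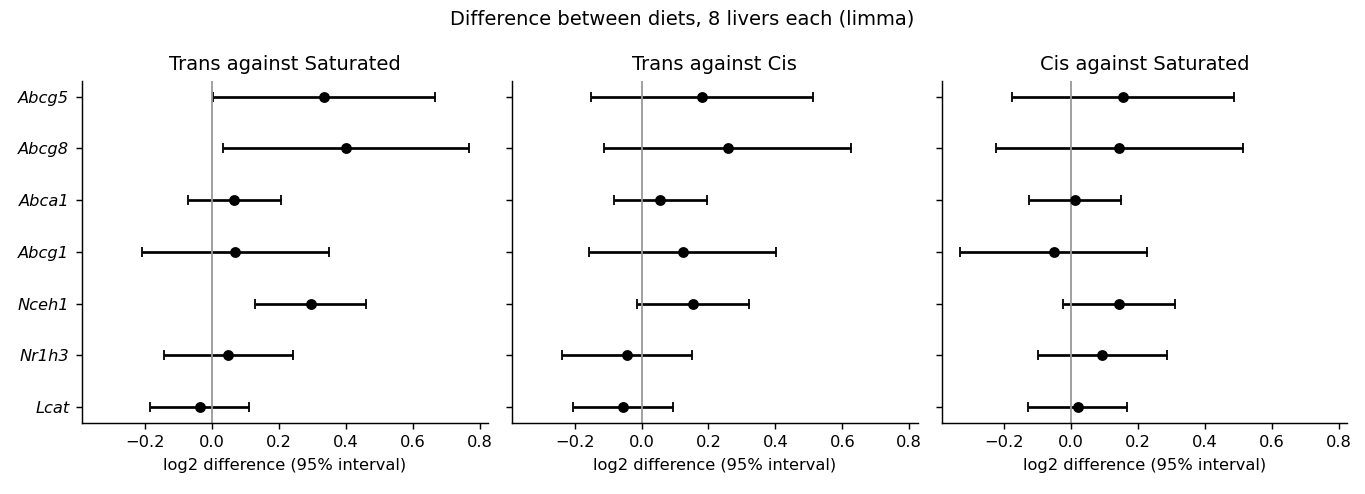
Log2 difference of each gene (horizontal axes) with its 95% interval from limma, in one panel per comparison of 8 livers against 8. The intervals of Abcg5, Abcg8 and Nceh1 lie above 0 for Trans against Saturated, and every other interval in the 3 panels holds 0.

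Among mice of one diet, *Abcg5* and *Abcg8* varied together more closely than any other pair of members. Each liver was expressed as its deviation from the mean of its diet, and the 21 pairs of members were compared over the 24 livers. *Abcg5* and *Abcg8* had a Pearson r of 0.914 and a Spearman rho of 0.898, each with a permutation p of 1e-05, the smallest that these permutations can give (adjusted p = 0.00021). The correlation was 0.935 within the Trans livers, 0.878 within the Cis livers and 0.953 within the Saturated livers. It was 0.882 without the 2 livers farthest from the median of *Abcg5*. The next pair was *Abcg8* with *Nr1h3*, at r = 0.534 and rho = 0.504 (adjusted permutation p = 0.116 and 0.128). No pair other than *Abcg5* with *Abcg8* passed after adjustment.

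*Abcg5* and *Abcg8* also moved with genes of the circadian clock. The clock is a feedback loop in which BMAL1 (product of *Arntl*) and CLOCK or NPAS2 drive the *Per*, *Cry* and *Nr1d* genes, whose products then repress them. The search for the genes most like *Abcg5*, over 6967 genes, gave *Gne* (r = 0.917), which encodes the enzyme that starts sialic acid synthesis, *Tef* (0.902), a clock-controlled transcription factor, and *Narf* (0.893). A list of 20 clock genes, 17 of them measured, was then drawn up because *Tef* was among them, so its correlations are given as a description over 24 livers from the same arrays, with no test. *Abcg5* correlated negatively with all 5 measured genes that peak with *Arntl*, at r = -0.856 for *Arntl*, -0.865 for *Npas2*, -0.765 for *Clock*, -0.730 for *Nfil3* and -0.677 for *Cry1*. It correlated positively with all 9 measured genes of the opposite arm, among them *Nr1d2* (0.835), *Per3* (0.832), *Per1* (0.808) and *Per2* (0.750). *Abcg8* showed the same signs, at -0.769 for *Arntl* and 0.824 for *Tef*. *Nceh1* and *Nr1h3* also had these signs for all 5 and all 9 genes, so the signs alone are not particular to the pair. The median size of r over the 17 genes was 0.219 for *Nceh1* and 0.294 for *Nr1h3*. It was 0.750 for *Abcg5* and 0.672 for *Abcg8*. For *Abcg5* and *Abcg8* 15 of 17 correlations exceeded 0.6 in size, against 0 of 17 for *Abca1*, *Nceh1*, *Nr1h3* and *Lcat* and 1 of 17 for *Abcg1*. The share of all 6967 genes over 0.6 was not counted. Over 0.8 in size it was 0.646% for *Abcg5* and 0.388% for *Abcg8*. The list followed from the search with *Abcg5*, and genes of one feedback loop are not independent of each other. The correlations above are Pearson values over all livers, and some were smaller for *Abcg5* when taken otherwise. Its Spearman rho was -0.519 for *Cry1* and -0.523 for *Nfil3*. Without the 2 livers farthest from the median of *Abcg5*, its r for *Cry1* was -0.519. Within the Cis livers its r was -0.224 for *Cry1*, -0.305 for *Nfil3* and 0.370 for *Per2*, against -0.657 for *Arntl* and 0.754 for *Tef*.

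**Figure D3:**
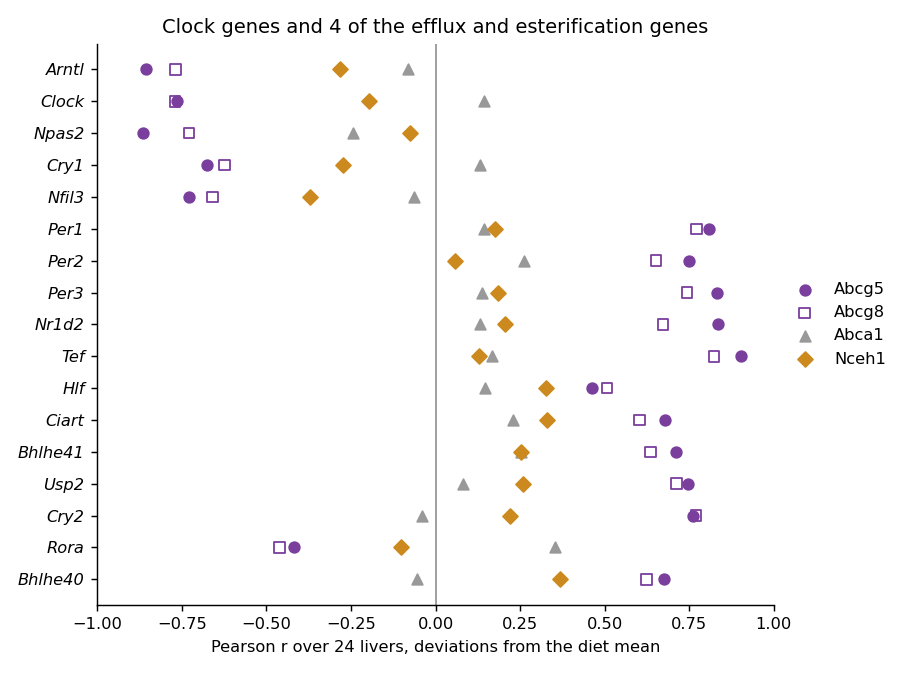
Pearson r (horizontal axis) of 17 clock genes with Abcg5, Abcg8, Abca1 and Nceh1 over 24 livers, as deviations from the diet mean. Abcg5 and Abcg8 lie far to the left for Arntl, Clock, Npas2, Cry1 and Nfil3 and far to the right for the Per genes, Nr1d2 and Tef, while Abca1 and Nceh1 stay within 0.6 of 0.

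The livers with the lowest *Abcg5* in a diet were among those highest in *Arntl*. Trans replicates 6 and 7 deviated from the Trans mean by -0.63 and -0.54 (log2) in *Abcg5* and by 1.93 and 1.99 in *Arntl*. Cis replicate 6 deviated from the Cis mean by -0.47 in *Abcg5* and 1.02 in *Arntl*, and Saturated replicate 7 from the Saturated mean by -0.57 in *Abcg5* and 1.43 in *Arntl*. The Cis liver highest in *Arntl* was replicate 2, at 1.12, and its *Abcg5* lay 0.04 above the Cis mean. *Arntl* signal had a lowest value of 15.5, a median of 21.8 and a highest value of 122 in the Trans livers, against 15.5, 24.8 and 67.4 in the Cis livers and 12.8, 49.2 and 109 in the Saturated livers. Its Trans against Saturated difference was -0.41 ± 0.52 (log2, SE, adjusted p = 0.921, limma). With *Arntl* as a covariate beside diet, a setting chosen after the data had been seen, the Trans against Saturated difference was 0.23 for *Abcg5* (adjusted p = 0.591), 0.29 for *Abcg8* (0.605) and 0.28 for *Nceh1* (0.387), against 0.34, 0.40 and 0.30 without it (limma). The time of day at which these livers were taken is not given in the sources used here, and its part in these differences was not tested.

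**Figure D4:**
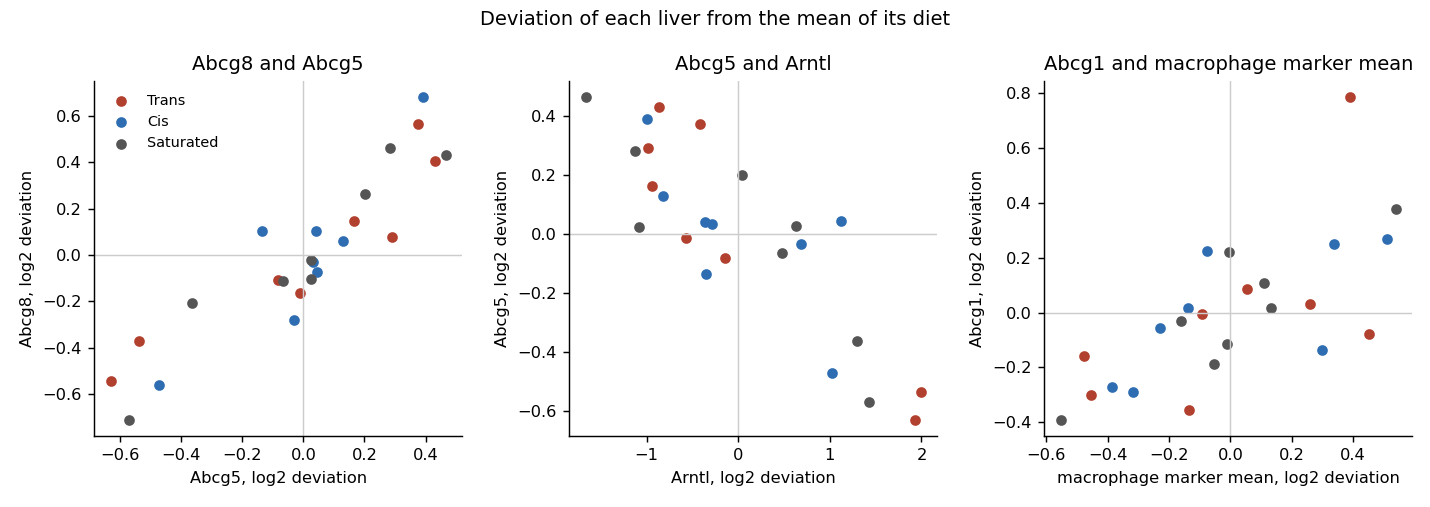
Log2 deviation of each liver from the mean of its diet, for Abcg8 against Abcg5 (r = 0.914), Abcg5 against Arntl (r = -0.856) and Abcg1 against the mean of 12 markers of Kupffer cells and macrophages (r = 0.696), with points coloured by Trans, Cis and Saturated diet. Livers of all 3 diets lie along each trend.

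*Abcg1* varied with markers of the resident macrophages of the liver. The 7 members were set against the means of 3 marker lists, 21 tests added after the members' values had been seen. *Abcg1* and the mean of 12 markers of Kupffer cells and macrophages had r = 0.696 and rho = 0.730 (adjusted permutation p = 0.00441 and 0.00336). Without the 2 livers farthest from the median of the marker mean, Cis replicate 3 and Saturated replicate 6, r was 0.635. Trans replicate 4, the liver highest in *Abcg1*, stayed in. The correlation was 0.618 within the Trans livers, 0.690 within the Cis livers and 0.871 within the Saturated livers. The summed signal of these markers was 1372 to 2557 in the Trans livers, 1493 to 2603 in the Cis livers and 1570 to 2850 in the Saturated livers. For 10 of the 12 markers the Trans mean was below the Saturated mean (median -0.19, log2), and for 12 of 12 the Cis mean was (median -0.22), and their part in the *Abcg1* differences was not tested. In whole liver, fewer cells of a type and less RNA per cell cannot be told apart.

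*Nceh1* leaned the other way with the hepatocyte markers. It had r = -0.598 and rho = -0.549 with the mean of the 9 hepatocyte markers, which missed the threshold after adjustment (permutation p = 0.055 and 0.076), and for 8 of these 9 markers the Trans mean was below the Saturated mean (median -0.04, log2). Markers of lipid-associated and recruited macrophages stood at a low level, a mean of 3.50 to 5.05 (log2) over 8 genes in all livers. Of these 8 genes, 7 had a higher mean in Trans than in Saturated livers, beside 51.6% of all genes. The exception was *Fabp5*, at -1.04 (log2, adjusted p = 0.625, limma). All 8 had a higher mean in Trans than in Cis livers, beside 50.5% of all genes. *Nceh1* had r = 0.432 with the mean of the 8 markers (adjusted permutation p = 0.157). Their summed signal was 169 to 396 in the Trans livers (median 233), 127 to 265 in the Cis livers (median 155) and 146 to 354 in the Saturated livers (median 264). Their part in the *Nceh1* difference was not tested. The genes most like *Nceh1* were *Serpina3n* (r = 0.801), an acute phase protease inhibitor, *Vnn1* (0.777), a pantetheinase, and *Adi1* (0.773) of methionine salvage. Those most like *Abca1* were *Srsf11* (0.750), *Snora73b* (0.748) and *Chd9* (0.731).

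Across mice, no member had a correlation with cholesterol synthesis that passed. The mean of 17 synthesis genes correlated most with *Abcg1* (r = -0.376), *Lcat* (-0.332) and *Abcg8* (-0.327), and the smallest adjusted permutation p of the 7 tests was 0.331. Without Saturated replicate 2 these values were -0.347 for *Abcg1*, -0.137 for *Lcat* and -0.205 for *Abcg8*. Within the Trans, Cis and Saturated livers in turn, r was -0.685, 0.523 and -0.727 for *Abcg1* and -0.056, 0.097 and -0.771 for *Lcat*. For *Abcg8* it was -0.014, -0.233 and -0.588, and for *Nceh1* 0.016, 0.810 and -0.380. Each of these values rests on 8 livers, and their difference between diets was not tested. Those of the Saturated livers include replicate 2, whose synthesis mean deviated by -1.17 (log2) from the mean of its diet. They were not taken without it. Between diets, by contrast, all 17 synthesis genes averaged lower in Trans than in Saturated livers, each with an unadjusted p under 0.05, and 0 passed after adjustment with all 24 livers, against 6 without Saturated replicate 2 (limma). *Sqle*, the squalene epoxidase, differed by -1.37 (log2, adjusted p = 0.402) with all livers.

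Among neighbouring genes of sterol handling, limma called 0 genes in any of 7 lists and 3 comparisons with all 24 livers, and at an unadjusted p under 0.05 each list had 0 to 2 genes higher and 0 to 2 genes lower. Among 10 measured LXR targets other than the members, 7 had a higher mean in Trans than in Saturated livers, beside 51.6% of all genes. *Srebf1*, the lipogenic LXR target, differed by 0.33 (log2) in that comparison, by -0.20 for Trans against Cis and by 0.53 for Cis against Saturated (adjusted p = 0.791, 0.925 and 0.684). *Mylip*, which targets the LDL receptor for degradation, and *Lpcat3*, an acyltransferase of phospholipids, both differed by 0.14 for Trans against Saturated. *Cyp7a1*, the rate-limiting enzyme of bile acid synthesis, differed by -0.49 there (adjusted p = 0.788).

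Of 10 genes of cholesteryl ester hydrolysis, 8 had a higher mean in Trans than in Saturated livers, as did 6 of 9 HDL genes, 6 of 8 other acyltransferases and 4 of 6 measured LXR receptors and partners. Over all genes the Trans mean was the higher for 51.6% against Saturated and for 50.5% against Cis, and the direction counts of these small lists were not tested. *Ces1g*, a carboxylesterase, differed by 0.25 (log2) and *Lipa*, the lysosomal acid lipase, by 0.04. The Trans mean was the higher for 6 of 15 other ATP-binding cassette transporters and for 6 of 14 genes of intracellular sterol transport. Against Cis, the Trans mean was the higher for 10 of 15 of these transporters, 10 of 14 transport genes, 5 of 10 hydrolysis genes, 6 of 9 HDL genes, 7 of 10 LXR targets, 3 of 8 acyltransferases and 2 of 6 LXR receptors and partners. For Trans against Saturated, *Abcb4*, the phospholipid transporter of bile, differed by 0.14 and *Abcb11*, the bile salt pump, by -0.12. *Stard4*, a carrier of cholesterol that is itself induced when sterols are scarce, differed by -0.32 (adjusted p = 0.623, limma), and *Npc1*, which exports cholesterol from lysosomes, by 0.10.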

How the data were processed

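Liver RNA of 24 mice was hybridised to Affymetrix Mouse Gene 1.1 ST arrays, 1 per mouse. The authors summarised the scans by RMA, and the deposited table holds log2 values per probe set after background correction, quantile normalization and probe summary. The methods describe probe sets built on gene identifiers, but this table uses the probe sets of the array design. Of 35556 probe sets, 21218 name 1 gene, 1881 several and 12457 none, and a gene was taken by its single-gene probe set of highest mean. No filter was applied, and array number (8 per diet) limits precision. Labels give the diet and a replicate number, and the methods give 8 mice per diet, so each replicate was taken as a separate mouse. The 3 diets were fitted together with limma 3.58.1 in R 4.3.3 (lmFit, eBayes), two-sided, with Benjamini-Hochberg adjustment over all probe sets and a call under 0.05. The procedure was tested on simulated data. The changes simulated for limma were larger than any member difference given here. That test therefore does not show how well differences of these sizes are detected. Signals are 2 to the power of the log2 value. Correlations used deviations from diet means and 100000 permutations of livers within diets.

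The members, lists and named genes were chosen with earlier results of these data known. Named are all members, a set of neighbouring genes given by name, and the 3 genes most like *Abcg5*, *Abca1* and *Nceh1* by r, among genes with a mean log2 of at least 5. *Nr1h2* and *Pltp* had no probe set that names them alone. Promoters came from RefSeq (GRCm38.p6) by symbol, and none was used for *Abcg1* and *Soat2*. Alternatives were a trend and robust fit, 2 diets alone, array weights, a repeated quantile normalization, median centring, a signal filter, a replicate block, a fold threshold, exact permutation, the methods' post hoc test and leaving out each liver. Lists of markers are described by counts, and no other probe set of a member could serve as an alternative.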

Additional observations from a re-analysis of the deposited data

Results flagged for a closer look

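In all, 3 livers stood apart from the other 7 of their diet by Dixon's criterion at the 95% level, all of them Trans livers and each in another gene. *Abca1* had a signal of 452 in Trans replicate 5, with the next Trans liver at 378. *Abcg1* had a signal of 78.0 in Trans replicate 4, with the next at 47.9, and the array of that liver had the lowest correlation with the other arrays (0.975). *Lcat* had a signal of 1436 in Trans replicate 6, with the next at 1210. Chance alone puts about 1 in 20 groups past this criterion, and 21 groups of livers were looked at.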

How the results depend on the processing

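Over the 3 comparisons, the 7 members' differences kept direction and side of the threshold in 206 values under other settings, with 3 stronger and 1 reversed, and in 494 with 1 liver left out, with 10 reversed. For *Nceh1*, the methods' post hoc test (p = 0.00327) and exact permutation (p = 0.00668) passed for Trans against Saturated, and exact permutation for Trans against Cis (p = 0.0404), since these do not adjust over probe sets. *Abcg1* turned for Trans against Saturated with array weights (-0.0051, log2). With 1 liver left out, *Abcg1* ranged from -0.0420 to 0.124 for Trans against Saturated (negative without Trans replicate 4) and from -0.108 to 0.0013 for Cis against Saturated (positive without Saturated replicate 6), and *Nr1h3* from -0.100 to 0.00010 for Trans against Cis (positive without Cis replicate 3). For Cis against Saturated, *Lcat* ranged from -0.0161 to 0.0514 (negative without Cis replicate 3 or 4 or Saturated replicate 8) and *Abca1* from -0.0190 to 0.0337 (negative without Cis replicate 7 or 8 or Saturated replicate 1 or 4). The cause was not tested.

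The number of members called was 0 in each comparison with any 1 liver left out, and 3 for Trans against Saturated at an unadjusted p under 0.05 (1 to 3 with 1 liver left out, 2 with only the 2 diets fitted). Called probe sets for Trans against Saturated, 3 as reported, were 0 with only the 2 diets fitted, 5 with a replicate block, 1 with median centring, 1 with *Arntl* as a covariate, 5 with mean signal over 20, and 1 to 16 with 1 liver left out, 16 being without Saturated replicate 2. For Trans against Cis, 1 as reported, they were 0 with only the 2 diets fitted, with the replicate block and with mean signal over 20, and 0 to 2 with 1 liver left out. For Cis against Saturated, 0 as reported, they were 0 to 3 with 1 liver left out, 3 being without Saturated replicate 2. Same-numbered livers shared little deviation over all probe sets (correlations of -0.068 to 0.088), which cannot exclude a smaller link between them. Replicate numbers were not treated as pairs in the main fit, and the block changed no member's call. The *Abcg5* and *Abcg8* differences for Trans against Saturated ranged from 0.25 to 0.43 and from 0.30 to 0.48 (log2) with 1 liver left out. The spread between 8 livers limits these values.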

Other observations

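Within the Trans livers *Lcat* ran against *Abcg5* (r = -0.821) and *Abcg8* (r = -0.804), whereas within the Cis livers the values were 0.587 and 0.686 and within the Saturated livers 0.268 and 0.504. *Lcat* with *Nr1h3* gave -0.656 within the Trans livers, 0.829 within the Cis livers and 0.417 within the Saturated livers. The difference between diets was not tested, each value rests on 8 livers, and Trans replicate 6 held both the highest *Lcat* and the lowest *Abcg5* of its group. Of 6967 genes, 45 correlated with *Abcg5* at a size over 0.8 and 27 with *Abcg8*, against 0 with *Abca1* and *Lcat*, 1 with *Nceh1*, 3 with *Abcg1* and 11 with *Nr1h3*.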
